A study of Mus musculus with 6 samples.

Results

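The endothelin and natriuretic peptide systems were described in whole mouse hearts through 10 genes, taken by gene symbol from the 46983 genes counted. They are the endothelin ligand gene Edn1, the processing enzyme gene Ece1, the endothelin receptor genes Ednra and Ednrb, the natriuretic peptide genes Nppa and Nppb, the protease gene Corin, and the receptor genes Npr1, Npr2 and Npr3. RNA was sequenced from whole hearts of E13.5 embryos (C57BL/6 x DBA/2 background), 1 heart per library, with 3 hearts per group. The mutant group is replicates 1, 5 and 10, and the group labelled wild type is replicates 2, 3 and 5. By the study's methods, mutant hearts carried Tnnt2 Cre together with homozygous floxed Wt1, and the hearts labelled wild type were Cre-negative with both Wt1 alleles floxed as well. The Tnnt2 promoter drives Cre in cardiomyocytes from early stages, and the study also describes recombination in a part of the proepicardial and epicardial cells. All 10 genes passed the filter on low counts, so every member enters the comparison.

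Endothelin-1 is made as a long precursor that the membrane protease ECE1 cuts to the active peptide. It acts through 2 G protein-coupled receptors, of which the A receptor is typical of smooth muscle and neural crest mesenchyme and the B receptor of endothelial cells and of neural crest lineages such as glia and melanocytes. Atrial and B-type natriuretic peptides are made by cardiomyocytes, and the protease corin cuts the atrial prohormone. NPR1 and NPR2 are guanylyl cyclases that make cGMP on ligand binding, while NPR3 lacks the cyclase and clears the peptides. In the embryonic heart Nppa is a classical marker of the forming chambers, strong in atria and trabeculae, and Npr3 is typical of endocardium.

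Total counts ran from 44244665 to 56373393 per heart. The targeted gene Wt1 had 19.96 to 39.95 CPM (counts relative to the library total, scaled by edgeR's TMM method) in wild type hearts and 17.7 to 35.7 CPM in mutant hearts. The groups overlapped, and a count over the whole gene does not separate floxed from deleted alleles. In wild type replicate 5 the deviation of a gene's level from its mean fell with gene length (Spearman's rho across genes −0.556, against −0.0622 to 0.464 in the other hearts). Wild type replicate 3 held reads of liver genes, with a summed level of 830 FPKM over Alb, Afp, Apoa1 and Ttr against 0.745 to 21.7 FPKM in the other 5 hearts. Wild type replicate 3 also held 17.998 FPKM over 4 skeletal muscle genes against 0.628 to 2.15 FPKM. Values without these hearts are given where they change a result. Xist, which marks female hearts, was at 299 to 391 CPM in wild type replicate 2 and mutant replicates 5 and 10 and at most 0.209 CPM in the others, so both groups hold both sexes.

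Nppb and Nppa lie next to each other on the same strand of chromosome 4, with 13516 bases between them (GENCODE M21, GRCm38). Nppb (ENSMUSG00000029019) runs from 147985788 to 147987205 and Nppa (ENSMUSG00000041616) from 148000722 to 148002079, each with 3 exons. The neighbours did not vary together across the hearts, and sequence upstream of their RefSeq starts is shown. A link between the sequence and this variation was not tested. The 250 bases before the start of Nppa (chr4:148000472-148000721, plus strand, RefSeq, GRCm38.p6) are given with motif matches in capitals. From 5′ to 3′ these are a T-box site on the opposite strand, an NK2 homeobox site, a GATA site on each strand and a TATA box.
Nppa: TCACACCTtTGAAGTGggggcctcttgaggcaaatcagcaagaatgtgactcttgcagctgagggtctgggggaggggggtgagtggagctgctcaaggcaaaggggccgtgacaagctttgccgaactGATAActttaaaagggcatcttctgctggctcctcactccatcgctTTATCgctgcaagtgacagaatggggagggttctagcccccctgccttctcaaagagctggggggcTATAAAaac
For Nppb, RefSeq places the start at 147985900, which is 112 bases downstream of the GENCODE start. A window of 30 bases (chr4:147985799-147985828, plus strand) holds both of its GATA sites, and another of 30 bases (chr4:147985857-147985886) its TATA box, again in capitals. Both windows lie before the RefSeq start but after the GENCODE start, so they are upstream sequence by RefSeq only.
Nppb GATA window: tgcagctGATAAatcagaGATAAccccacc
Nppb TATA window: actcagccccagTATAAAaggcagaggcac

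Motifs were searched on both strands in the 250 bases before each RefSeq start, except the TATA box, which was searched on the strand of the gene. The T-box site (AGGTGTGA) was found in 1.12% of 32851 windows of this length over all genes, and among the 13 windows of the members only in that of Nppa. The NK2 site (TGAAGTG) was found in 3.31% of all windows, and again in that of Nppa alone among the members. GATAA was found in 22.6% and TATAAA in 7.59% of all windows, and Nppa and Nppb were the members with either. A WT1 site of 9 bases (GCGTGGGAG, 0.405% of all windows) was found in 0 of the 13 windows. The related GCGGGGGCG (2.57% of all windows) was found in the window of Npr1. The SRF CArG box (CCWWWWWWGG with W for A or T, 1.47% of all windows) was found in none of the 13. Only exact matches were counted, so sites that differ by a base are not covered. A match describes letters and not binding.

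Edn1 (ENSMUSG00000021367) lies on chromosome 13 from 42301476 to 42307990 and Ece1 (ENSMUSG00000057530) on chromosome 4 from 137862237 to 137965229. Ednra (ENSMUSG00000031616) lies on chromosome 8 from 77663031 to 77724464 and Ednrb (ENSMUSG00000022122) on chromosome 14 from 103814625 to 103844402. Corin (ENSMUSG00000005220) lies on chromosome 5 from 72300025 to 72504473. Npr1 (ENSMUSG00000027931) lies on chromosome 3 from 90450591 to 90465866, Npr2 (ENSMUSG00000028469) on chromosome 4 from 43631935 to 43651244, and Npr3 (ENSMUSG00000022206) on chromosome 15 from 11839896 to 11907287. Exons of the opposite-strand gene Gm13054 cover 61.5% of the exon bases of Nppa, and its own count was at most 77 in any heart. The strand setting of the counting is not given in the sources used here, so the level of Nppa is uncertain where the exons overlap. For the other members with an overlapping gene the shared part was between 1.64% (Edn1) and 11.7% (Npr1) of the exon bases.

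In wild type hearts the natriuretic peptide genes and Ece1 were the most abundant of the 10 genes and Edn1 the least. On the deposited FPKM scale, which divides the count by gene length and by library total, the mean level over 3 wild type hearts was 275 ± 141 FPKM for Nppb and 175 ± 117 FPKM for Nppa (SD). Ece1 had 119 ± 40.5 FPKM, and its range overlapped with that of Nppa but not with that of Ednrb, which had 36.3 ± 7.26 FPKM. Npr3 followed with 28.5 ± 6.28 FPKM. Corin (19.99 ± 4.27 FPKM), Ednra (19.9 ± 2.55 FPKM) and Npr2 (18.6 ± 1.203 FPKM) had overlapping ranges. Npr1 had 11.3 ± 2.03 FPKM and Edn1 4.26 ± 0.335 FPKM, with ranges apart from those of their neighbours in this order.

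**Figure D1:**
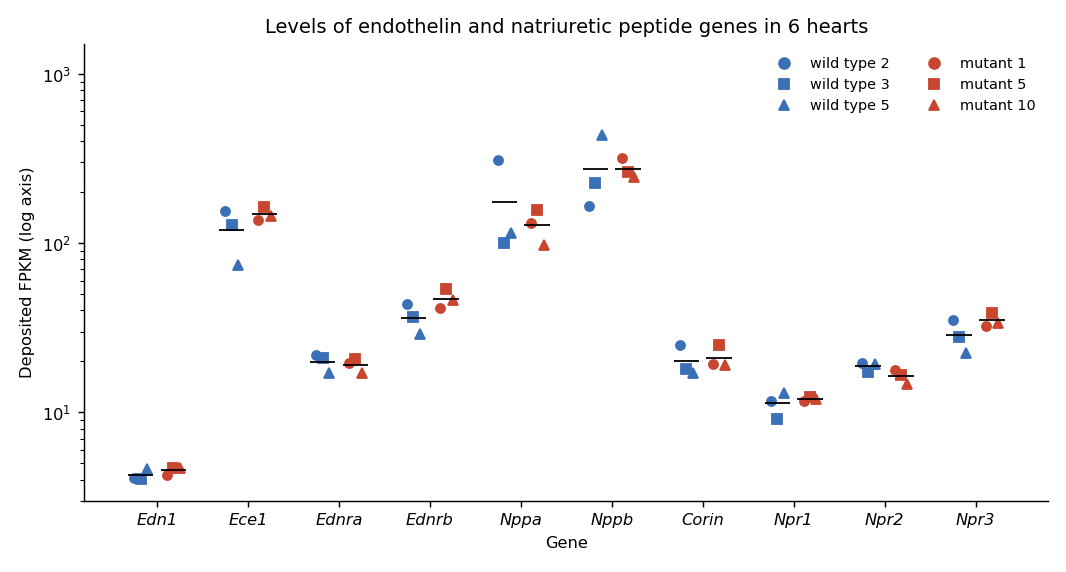
Deposited FPKM (log axis) of the 10 genes in each of the 6 hearts, with wild type in blue, mutant in red, one symbol per replicate and a black bar for the group mean. Nppa of wild type replicate 2 (309.7 FPKM) and Nppb of wild type replicate 5 (434.7 FPKM) stand above the other hearts, while Edn1 lies between 4.06 and 4.71 FPKM in all of them.

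The FPKM values rest on 1 length per gene, and for Ece1, Npr1 and Npr2 that length was 1509, 1443 and 1560 bases, equal after rounding to the mean over their annotated transcripts in GENCODE M21. The merged exons of these genes span 5300, 4783 and 4667 bases. Counted per kilobase of merged exons, Ece1 had 33.9 ± 11.5 FPKM in wild type hearts, a range that overlapped with the 33.5 ± 6.69 FPKM of Ednrb. On this scale Npr1 had 3.41 ± 0.611 FPKM, below Edn1 with 4.67 ± 0.367 FPKM. Nppb and Nppa keep the highest mean levels on either scale. Comparisons of one gene between hearts are not affected by its length in this way.

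Between mutant and wild type hearts, 0 of the 10 genes reached an adjusted p below 0.05 (quasi-likelihood test of edgeR, Benjamini-Hochberg adjustment over all 17473 genes tested), as did 0% of all genes. By DESeq2 0 of the 10 passed as well, against 0.66% of all genes with an adjusted p. At an unadjusted p under 0.05, edgeR's test gave 1 of the 10 genes (Ednrb), where 5.73% of all genes passed, 3.14% higher and 2.59% lower in the mutant. The groups overlapped in each of the 10 genes, while they did not overlap in 11.2% of all genes tested (6.61% higher and 4.59% lower). The median log2 fold change of the 10 genes was 0.11 (7 higher and 3 lower in the mutant), beside −0.00099 over all genes. The hearts are separate embryos, and with 3 per group the intervals below bound what change these data leave possible. In whole hearts, fewer cells of a type and less RNA per cell cannot be told apart.

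**Figure D2:**
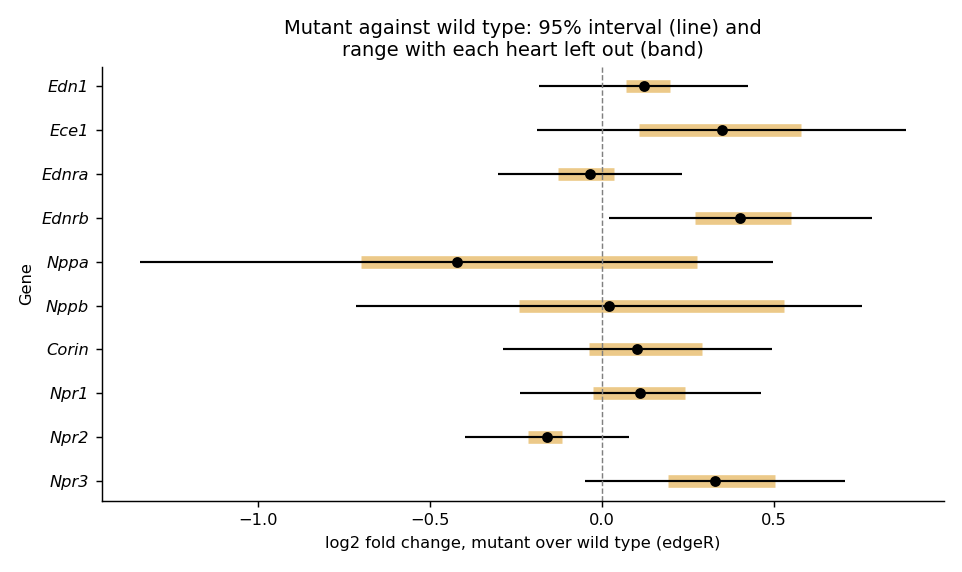
log2 fold change of mutant over wild type for the 10 genes by edgeR (points) with its 95% interval (black lines) and the range of the estimate when each heart in turn is left out (yellow bands). The interval of Ednrb alone lies above 0, and the bands of Ednra, Nppa, Nppb, Corin and Npr1 cross 0.

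The ligand gene Edn1 varied little. It had 9.42, 9.32 and 10.9 CPM in wild type replicates 2, 3 and 5, and 9.75, 11.0 and 11.5 CPM in mutant replicates 1, 5 and 10. The groups overlapped, with a ratio between the highest and the lowest heart of 1.24. Its mutant level was 1.09-fold the wild type level (95% interval 0.881 to 1.34, adjusted p = 0.985 by edgeR). Over all 6 hearts its spread on the log2 scale was larger than that of only 22.7% of the genes tested.

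Ece1, the enzyme that activates endothelin, was set apart by a single heart. It had 229, 189 and 113 CPM in wild type replicates 2, 3 and 5, and 201, 246 and 229 CPM in mutant replicates 1, 5 and 10. Wild type replicate 5 was the lowest of the 6 hearts, and the other wild type hearts lay within or just below the mutant range. The log2 fold change was 0.35 (standard error 0.23, 95% interval −0.19 to 0.89, adjusted p = 0.968 by edgeR). Leaving out wild type replicate 5 lowered it to 0.11, and leaving out wild type replicate 2 raised it to 0.58.

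Of the endothelin receptor genes, the mutant hearts were inside the wild type range for Ednra and mostly above it for Ednrb. Ednra, the A receptor gene, had 72.9, 69.3 and 58.0 CPM in wild type replicates 2, 3 and 5, and 65.1, 69.4 and 60.9 CPM in mutant replicates 1, 5 and 10. All mutant values lay inside the wild type range. The mutant level was 0.976-fold the wild type level (95% interval 0.811 to 1.17, adjusted p = 0.990 by edgeR). The estimate lay between −0.13 and 0.036 on the log2 scale with each heart left out, so its direction is not fixed.

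Ednrb, the B receptor gene, had 168, 141 and 114 CPM in wild type replicates 2, 3 and 5, and 159, 210 and 191 CPM in mutant replicates 1, 5 and 10. Mutant replicates 5 and 10 were above every wild type heart, while mutant replicate 1 was below wild type replicate 2. The mean went from 141 ± 27.0 CPM to 187 ± 25.9 CPM (SD, n = 3 per group), a log2 fold change of 0.40 (standard error 0.17, 95% interval 0.02 to 0.78). Its unadjusted p of 0.0411 by edgeR ranked 843 among all genes, and its adjusted p was 0.847. The unadjusted p was at or above 0.05 without wild type replicate 3, wild type replicate 5, mutant replicate 5 or mutant replicate 10, and the log2 fold change ran from 0.27 to 0.55 over the hearts left out.

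Within each heart the FPKM of Ednrb was set against that of Ednra, a ratio in which the scaling of the library cancels. The ratio was 1.99, 1.75 and 1.70 in wild type replicates 2, 3 and 5, and 2.10, 2.61 and 2.70 in mutant replicates 1, 5 and 10. The groups did not overlap. The difference of the log2 ratio was 0.44, and a two-sided exact permutation test gave p = 0.1, the smallest p that 3 hearts against 3 allow. Adjusted over the 4 ratios tested, this exact p was 0.4. The difference ran from 0.37 to 0.55 with each heart left out.

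**Figure D3:**
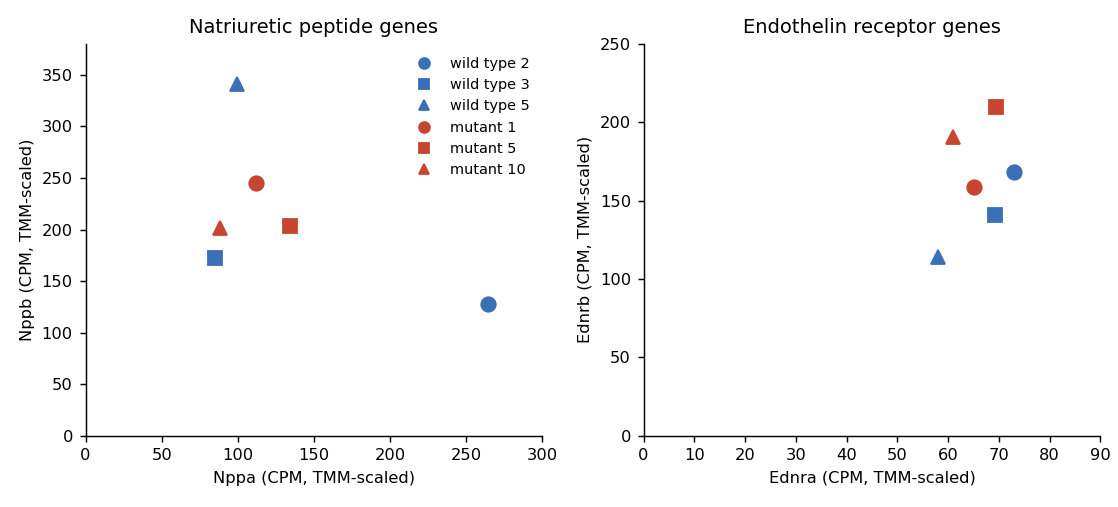
Nppb against Nppa (left) and Ednrb against Ednra (right) in TMM-scaled CPM, one point per heart, with wild type in blue and mutant in red. Wild type replicates 2 and 5 lie at opposite corners for the peptide genes, and at a like level of Ednra the mutant hearts lie higher in Ednrb.

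Of the natriuretic peptide genes, Nppa was dominated by wild type replicate 2. It had 264, 85.3 and 99.2 CPM in wild type replicates 2, 3 and 5, and 112, 134 and 88.5 CPM in mutant replicates 1, 5 and 10. The other wild type hearts lay among or below the mutant hearts. The mean was 149 ± 99.4 CPM in the wild type and 112 ± 22.8 CPM in the mutant group (SD, n = 3 per group). The log2 fold change was −0.42 (standard error 0.40, 95% interval −1.34 to 0.50, adjusted p = 0.985 by edgeR). Without wild type replicate 2 it turned to 0.28, with an adjusted p of 0.865 from the same edgeR test.

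Nppb showed another order of the hearts. It had 128, 173 and 341 CPM in wild type replicates 2, 3 and 5, and 245, 204 and 202 CPM in mutant replicates 1, 5 and 10. The wild type hearts spanned both ends of the range, with replicate 2 lowest and replicate 5 highest, and the mutant hearts lay between wild type replicates 3 and 5. The means were 214 ± 113 CPM in the wild type and 217 ± 24.7 CPM in the mutant group (SD, n = 3 per group). The log2 fold change was 0.021 (standard error 0.32, 95% interval −0.71 to 0.76, adjusted p = 0.997 by edgeR). Leaving out wild type replicate 2, wild type replicate 3 or mutant replicate 1 turned it to −0.24, −0.11 or −0.075. Without wild type replicate 5 it was 0.53, with an unadjusted p of 0.00512 and an adjusted p of 0.205 by edgeR.

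The coefficient of variation of Nppa was 66.5% over the wild type and 20.4% over the mutant hearts, and that of Nppb 52.6% and 11.4%. The ratio of Nppb to Nppa on the FPKM scale was 0.535, 2.24 and 3.81 in wild type replicates 2, 3 and 5. In mutant replicates 1, 5 and 10 it was 2.42, 1.68 and 2.52. The log2 ratio differed by 0.39 between the groups (exact permutation test, two-sided, p = 0.8), and by −0.43 when wild type replicate 2 was left out or 0.99 when wild type replicate 5 was. Nppa is short (865 counted bases), as is Nppb (781 bases), and wild type replicate 5 is the heart with the strongest trend against gene length. With an offset for that trend, the log2 fold change was −0.42 for Nppa and 0.13 for Nppb. For the members with the longest counted length, Npr3 (6927 bases) and Ednrb (3934 bases), it was 0.21 and 0.33, beside 0.33 and 0.40 without the offset. Ednrb then had an unadjusted p of 0.0172 and an adjusted p of 0.608 by edgeR.

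Corin, whose product cuts the atrial prohormone, had 68.4, 49.2 and 47.8 CPM in wild type replicates 2, 3 and 5, and 52.6, 69.5 and 55.6 CPM in mutant replicates 1, 5 and 10. The groups overlapped nearly over their whole range. The mutant level was 1.07-fold the wild type level (95% interval 0.819 to 1.41, adjusted p = 0.985 by edgeR). The direction turned without mutant replicate 5 (log2 fold change −0.037).

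For the guanylyl cyclase receptor genes the estimates were close to no change. Npr1 had 16.7, 12.8 and 18.9 CPM in wild type replicates 2, 3 and 5, and 16.5, 17.7 and 18.2 CPM in mutant replicates 1, 5 and 10. Npr2 had 29.9, 26.4 and 30.2 CPM in the same wild type hearts and 27.2, 25.9 and 24.3 CPM in the mutant hearts. The groups overlapped for both genes, and Npr2 was one of the 3 members with a lower estimate in the mutant.

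Npr1 was 1.08-fold in the mutant (95% interval 0.848 to 1.38) and Npr2 0.896-fold (95% interval 0.759 to 1.06). Their adjusted p values by edgeR were 0.985 and 0.967. Leaving out wild type replicate 3, the heart with the liver reads and the lowest Npr1, moved the log2 fold change of Npr1 from 0.11 to −0.026. For Npr2, leaving out single hearts gave −0.22 to −0.12.

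Npr3, the clearance receptor gene, had 239, 189 and 157 CPM in wild type replicates 2, 3 and 5, and 220, 267 and 248 CPM in mutant replicates 1, 5 and 10. As with Ednrb, mutant replicates 5 and 10 were above every wild type heart and mutant replicate 1 was not. The mean was 195 ± 41.5 CPM in the wild type and 245 ± 23.8 CPM in the mutant group (SD, n = 3 per group), a log2 fold change of 0.33 (standard error 0.16, 95% interval −0.05 to 0.71, adjusted p = 0.924 by edgeR). The lowest estimate, 0.19, came with wild type replicate 5 left out, and the highest, 0.50, with wild type replicate 2 left out. The ratio of Npr3 to Npr1 and that of Edn1 to Ece1 overlapped between the groups (exact permutation p = 0.8 for each, two-sided). Without wild type replicate 5 the difference of the log2 ratio turned from 0.22 to −0.054 for Npr3 to Npr1 and from −0.28 to 0.085 for Edn1 to Ece1.

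Across the 6 hearts, 3 of the genes followed one order. Ednrb, Ece1 and Npr3 were lowest in wild type replicate 5, followed by wild type replicate 3, mutant replicate 1, wild type replicate 2, mutant replicate 10 and mutant replicate 5. This order was noticed after the values were seen. It puts the hearts with almost no Xist (wild type replicates 5 and 3 and mutant replicate 1) below those with high Xist. With Xist as a covariate, the log2 fold change by edgeR was 0.28 for Ednrb (0.40 without it), 0.23 for Ece1 (0.35) and 0.22 for Npr3 (0.33). The part of sex in this order was not tested. The order was found in 104 of the 17473 genes tested (0.595%, where 0.139% would have it if all orders were equally frequent). Of the listed cell type markers 5 had it, namely 3 of 9 endothelial genes (Pecam1, Cdh5 and Tek), 1 of 6 endocardial genes (Adgrg6) and 1 of 9 mural genes (Cspg4). Corin followed nearly the same order. In 31.1% of all genes wild type replicate 5 was the lowest heart, and in 5 of the 10 members.

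**Figure D4:**
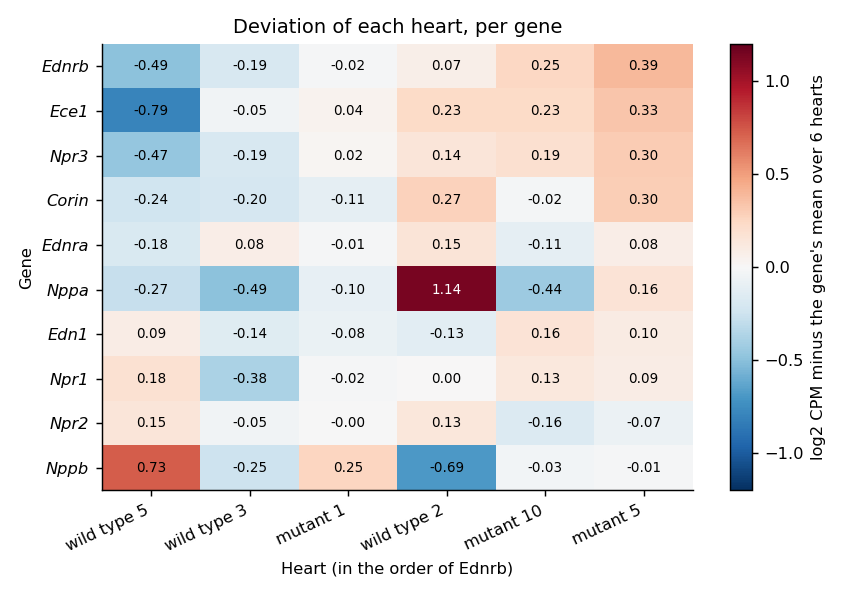
log2 CPM of each heart minus the gene's mean over the 6 hearts, with genes in rows and hearts in columns sorted by the level of Ednrb (red above, blue below the mean). Ednrb, Ece1 and Npr3 go from blue to red in the same order, while Nppa departs most in wild type replicate 2 and Nppb in wild type replicates 2 and 5.

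Lists of markers of the cells that carry these genes were read beside them. These lists were chosen with earlier results of the same data known. Of 6 endocardial genes, 6 had higher estimates in the mutant and 2 an unadjusted p under 0.05 (Nrg1 and Emcn, where 3.14% of all genes passed as higher), with a summed level of 86.5 to 144 FPKM in wild type and 126 to 145 FPKM in mutant hearts. Of 9 endothelial genes, 7 were higher and 0 passed (354 to 408 FPKM and 394 to 436 FPKM, unadjusted p under 0.05 in edgeR's test). Wild type replicate 5, the heart that was lowest in Ednrb, Ece1 and Npr3, had the lowest endocardial sum, and also the lowest sum of the mural, fibroblast and valve, epicardial and neural crest lists, while the lowest endothelial sum was that of wild type replicate 3. In CPM, Pecam1, Cdh5, Kdr, Tek, Tie1 and Erg of the endothelial list were lowest in wild type replicate 5. Egfl7 and Cldn5 were highest in that heart, and Esam was lowest in wild type replicate 3. Egfl7 (806 counted bases) gave 134 FPKM of the sum in wild type replicate 5, against 58.8 to 86.4 FPKM in the other hearts. The part of cell content in the values of Ednrb, Ece1 and Npr3 was not tested. Mural cell genes, where Ednra is typical, summed to 709 to 832 FPKM and 738 to 840 FPKM, with 6 of 9 higher and 0 passing. The list for neural crest, glia and melanocytes was low in every heart (25.03 to 30.8 FPKM and 28.9 to 31.6 FPKM, 0 of 10 passing). Most of this sum was Mitf, with 16.31 to 22.99 FPKM in wild type and 22.59 to 23.1 FPKM in mutant hearts. The defining gene of the list, Sox10, was at 1.48 ± 0.469 CPM in the wild type and at 1.16 ± 0.123 CPM in the mutant group (SD, n = 3 per group).

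For the cardiomyocyte genes Nppa, Nppb and Corin, the labelled tissue was borne out by its markers. The 10 cardiomyocyte genes summed to 17580 to 19370 FPKM in wild type and 18350 to 19500 FPKM in mutant hearts, and 1 had an unadjusted p under 0.05 (Myl7, lower). Single genes of this list were less even than the sum. In CPM, Actn2, Myh6, Myh7, Ttn and Ryr2 were lowest in wild type replicate 5, while Tnni3 and Myl7 were highest in that heart. All 10 chamber and trabecular genes had higher estimates in the mutant, with sums of 1347 to 1422 FPKM in wild type and 1571 to 1710 FPKM in mutant hearts that did not overlap. Of these, 4 had an unadjusted p under 0.05 in edgeR's test (Gja1, Bmp10, Irx3 and Cited1, against 3.14% of all genes that were higher). Of 11 atrial genes, 8 were lower and 6 had an unadjusted p under 0.05, all of them lower, against 2.59% of all genes in that direction. Their sums were 5683 to 7387 FPKM and 5199 to 6339 FPKM. Myl7 stands in both the cardiomyocyte and the atrial list, and Nr2f2 in the atrial list and among the regulators of Nppa and Nppb. By edgeR 0 genes of these 3 lists reached an adjusted p below 0.05, while DESeq2 gave 1 chamber gene (Gja1, higher) and 2 atrial genes (Kcna5 and Nr2f1, lower). Since the lists were chosen with earlier results of these data known, their shares beside those of all genes are description and not independent evidence. The high Nppa of wild type replicate 2 stood beside an atrial sum of 6724 FPKM, which lay below the 7387 FPKM of wild type replicate 5. Myl7 made up 2462 and 2938 FPKM of these sums, and Myl4 2825 and 3107 FPKM. In CPM, wild type replicate 2 was the highest heart in Nr2f1, Nr2f2, Kcna5, Dkk3 and Angpt1. Wild type replicate 5 was the highest in Myl7, Sln, Stard10 and Mybphl, and a mutant heart in Myl4 and Pam. The part of atrial content in the level of Nppa was not tested.

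Among other lists, 8 fibroblast and valve genes included 3 with an unadjusted p under 0.05 (Col1a1 and Col1a2 higher, Tcf21 lower) and 8 epicardial genes included 2 (Upk1b and Msln, higher), beside 5.73% of all genes. Tcf21 was the 1 gene of these with an adjusted p below 0.05 by DESeq2, and 0 had one by edgeR. In each of both lists 5 genes had higher and 3 lower estimates in the mutant, with Wt1, Tbx18 and Aldh1a2 the lower epicardial genes. The summed levels overlapped between the groups. They were 1088 to 1604 FPKM in wild type and 1590 to 2238 FPKM in mutant hearts for the fibroblast and valve list. For the epicardial list they were 102 to 205 FPKM and 125 to 216 FPKM. All 4 liver genes and both skeletal muscle genes tested had lower estimates in the mutant, beside the reads of these tissues in wild type replicate 3. Of 4 lung epithelial genes, 0 passed the filter on low counts. No marker on any list was at 0 in all 6 hearts.

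The other genes of both pathways were read from 4 lists of 59 distinct genes, of which 57 were tested. By edgeR 0 of them reached an adjusted p below 0.05, by DESeq2 1 did (Mme), and 5 had an unadjusted edgeR p under 0.05 (8.77%, against 5.73% of all genes). All 5 were lower in the mutant, where 2.59% of all genes passed in that direction. The median log2 fold change of the 57 genes was 0.034, with 31 higher and 26 lower. The groups did not overlap in 8 of them, with the mutant higher in 3 and lower in 5, against 11.2% of all genes (6.61% higher and 4.59% lower). As these lists too were chosen with earlier results of the data known, the shares are not independent evidence.

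**Figure D5:**
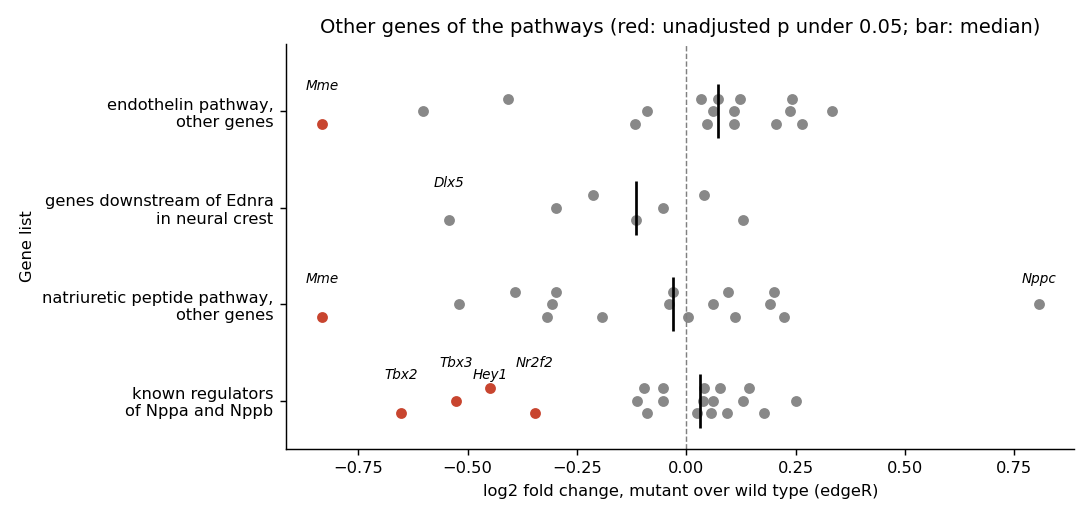
log2 fold change of mutant over wild type for each tested gene of the 4 pathway lists, with genes at an unadjusted p under 0.05 in red and the median of each list as a black bar. Mme stands alone at −0.83 in both lists that hold it, and Tbx2, Tbx3, Hey1 and Nr2f2 form the low end of the regulators.

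Mme encodes neprilysin, a membrane protease that breaks down natriuretic peptides and endothelin, and belongs to both pathway lists. It had 19.7, 15.6 and 13.01 CPM in wild type replicates 2, 3 and 5, and 8.56, 9.36 and 9.26 CPM in mutant replicates 1, 5 and 10. Every mutant heart was below every wild type heart. The mean was 16.1 ± 3.39 CPM in the wild type and 9.06 ± 0.437 CPM in the mutant group (SD, n = 3 each), a log2 fold change of −0.83 (standard error 0.16, 95% interval −1.21 to −0.46).

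Its adjusted p was 0.276 by edgeR (unadjusted 0.000909, rank 57 of all genes) and 0.00442 from DESeq2. Over the alternatives the adjusted p ran from 0.00442 to 1, and without wild type replicate 5 it was 0.0404 by edgeR. Leaving out each heart in turn moved the log2 fold change of Mme between −0.97 and −0.66.

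In the list of other endothelin genes, 17 were tested, with a median log2 fold change of 0.074, 12 higher and 5 lower, and Mme was the 1 with an unadjusted p under 0.05. The ligand genes Edn2 and Edn3 were low in all hearts, at 0.337 ± 0.130 and 1.04 ± 0.559 CPM in the wild type and 0.404 ± 0.230 and 0.678 ± 0.492 CPM in the mutant group (SD, n = 3 per group). Of the genes downstream of Ednra in neural crest, 7 were tested and 0 had an unadjusted p under 0.05 in edgeR's test. The homeobox gene Dlx5 had the smallest p of edgeR's quasi-likelihood test there (adjusted p = 0.985), at 0.706 ± 0.336 CPM in the wild type and 0.484 ± 0.0641 CPM in the mutant group.

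In the list of other natriuretic peptide genes, which holds further ligands, processing enzymes, cGMP kinases and phosphodiesterases, 17 of 18 were tested. Their median log2 fold change was −0.030, with 8 higher and 9 lower, and again Mme was the 1 with an unadjusted p under 0.05. Nppc, which encodes the C-type peptide that is the ligand of NPR2, was chosen for description after its values were seen. The files hold 18, 36 and 10 reads for it in wild type replicates 2, 3 and 5, against 33, 38 and 36 in mutant replicates 1, 5 and 10. The read counts overlapped between the groups. Scaled to CPM they lay only just apart, with 0.6257 CPM in wild type replicate 3 and 0.6346 CPM in mutant replicate 1. The log2 fold change of Nppc was 0.81 (95% interval −0.19 to 1.80, adjusted p = 0.939 by edgeR). Ostn, the gene of another ligand of NPR3, had at most 3 counts in any heart and was not tested.

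The list of known regulators of Nppa and Nppb held 20 tested genes with a median log2 fold change of 0.031, 11 higher and 9 lower. Apart from the 4 genes described next, the estimates ran from −0.11 for the T-box activator Tbx5 to 0.25 for Mef2a, in which every mutant heart was above every wild type heart (adjusted p = 0.895 by edgeR). The 4 genes with an unadjusted p under 0.05 were Tbx2 and Tbx3, T-box repressors of chamber genes in the non-chamber myocardium, the Notch target repressor Hey1, and the atrial factor gene Nr2f2.

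Tbx2 had 26.6, 37.6 and 39.97 CPM in wild type replicates 2, 3 and 5, and 25.04, 23.6 and 17.6 CPM in mutant replicates 1, 5 and 10. Its groups did not overlap, and the log2 fold change of −0.65 had a standard error of 0.19 (adjusted p = 0.638 by edgeR). Tbx3 had 18.3, 22.1 and 16.4 CPM in the wild type and 15.3, 12.4 and 11.7 CPM in the mutant group in the same order of replicates, also without overlap. The log2 fold change of Tbx3 was −0.53, with a standard error of 0.16 (adjusted p = 0.646 by edgeR).

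Nr2f2 had a log2 fold change of −0.35 without overlap of the groups, and Hey1 one of −0.45 with overlap (adjusted p = 0.762 and 0.765 by edgeR). The adjusted p of these 4 regulators stayed at 0.142 or more under every alternative. Each kept its direction with each heart left out, with Tbx2 between −0.81 and −0.51 and Tbx3 between −0.65 and −0.40 on the log2 scale.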

How the data were processed

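RNA was measured in 6 whole E13.5 hearts, 3 per group. After trimming, the authors mapped reads to mm10 with STAR and assigned uniquely mapped reads to genes with featureCounts (Rsubread 1.28.1, annotation M19), and deposited the count of each gene without normalization. The submitters' processing notes also name HTSeq and DESeq2. The authors also deposited FPKM values, each equal to the count over a single gene length and over the heart's total. A further deposited table of group means was not used.

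Counts were compared with edgeR 4.0.16 in R 4.3.3 (quasi-likelihood test, TMM, filterByExpr, minimum count 10, minimum total 15, two-sided), over all genes that passed the filter, with Benjamini-Hochberg adjustment over all of them and a threshold of 0.05. The standard error is the log2 fold change divided by the square root of F. CPM are scaled to the TMM library size, and summed list levels are deposited FPKM. Ratios between members were compared by exact permutation over 20 splits. Alternatives were DESeq2 1.42.0, voom and trend fits of limma 3.58.1 (log2 of FPKM plus 1 or 0.1), other size factors, no filter, an offset for the trend with gene length (local regression, span 0.5), Xist as a covariate, and each heart left out. A count per kilobase of merged exons was added after the data were seen. The fits were tested on simulated data.

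The members and lists were chosen with earlier results of these data known. All members are described. From each pathway list, genes with an adjusted p under 0.05 are named, then up to 4 with an unadjusted p under 0.05, or else the gene with the smallest p. From each marker list the summed level is given, and for Nppa and Nppb the 3 genes of closest profile. Other genes, among them markers and the regulators Tbx5 and Mef2a, were named after their values were seen. Gucy1a1 and Gucy1b1 were matched by gene ID to older symbols. The reads carry no molecular identifiers, so depth speaks to counting error only.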

Additional observations from a re-analysis of the deposited data

How the results depend on the processing

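No paired analysis was possible because the groups share only 1 replicate number (5). An adjusted p under 0.05 was reached by 0 of the 10 genes in every alternative run, while over all genes it was reached by 132 with DESeq2, 34 without a filter on low counts, 6 with the length offset, and 0 to 44 with each heart left out (44 without wild type replicate 5). At an unadjusted p under 0.05, all genes gave 619 to 2179 and the 10 genes 0 to 3 with each heart left out (3 without wild type replicate 2, which were Ednrb, Ece1 and Npr3). The 10 genes gave 0 with total counts and with either limma-trend fit. Of the pathway genes, 1 passed the adjusted threshold with DESeq2 and 0 to 1 with each heart left out, and 3 to 7 had an unadjusted p under 0.05 with each heart left out.

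Of 150 log2 fold changes of the 10 genes over the alternatives, 141 kept their direction and side of the threshold and 9 reversed, in 5 genes. With each heart left out these ran from −0.13 to 0.036 for Ednra, −0.70 to 0.28 for Nppa, −0.24 to 0.53 for Nppb, −0.026 to 0.24 for Npr1 and −0.037 to 0.29 for Corin. Corin was at −0.0056 with Xist as a covariate. Leaving out single hearts turned these directions, that of Corin also turned with Xist as a covariate, and the cause was not tested. Per kilobase of merged exons, the wild type mean was 4.67 FPKM for Edn1, 12.3 for Ednra, 33.9 for Ece1, 3.41 for Npr1, 6.23 for Npr2, 21.02 for Npr3 and 10.3 for Corin, by the longer or shorter length alone. With 3 hearts per group, a spread like that of Nppa leaves changes of either direction within its interval.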

Other observations

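The genes whose profile over the 6 hearts was closest to that of the natriuretic peptide genes were sought among 10095 genes with a mean of at least 10 CPM, by the root mean square difference of log2 CPM after each gene's mean was removed. For Nppb these were Gm14325 (0.0885), Sat1 (0.0997) and Gm5776 (0.107). Sat1, which encodes a polyamine acetyltransferase, had 24.0, 31.0 and 51.5 CPM in wild type replicates 2, 3 and 5 and 41.6, 36.5 and 34.6 CPM in mutant replicates 1, 5 and 10. For Nppa the closest were the ribosomal protein gene Rps29 (0.319), Gm10443 (0.320) and Slit3 (0.339), so no gene searched followed Nppa as closely as these followed Nppb. The hearts share library and depth effects, and no test was made.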
